A study of Mus musculus with 6 samples.

Results

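Caspases are cysteine proteases that cut other proteins after aspartate, and inflammasomes are complexes that activate some of them. Described here are 8 genes of this system: the inflammasome sensor Nlrp3 and its adaptor Pycard, the inflammatory caspases Casp1 and Casp4, and the apoptotic caspases Casp2, Casp8, Casp9 and Casp6. They were chosen by gene symbol from a table that names 22360 distinct symbols, and each is read by 1 probe set. Affymetrix MoGene-1_0-st arrays read the RNA of mouse c-kit+ bone marrow cells that had been transformed with MLL-AF9, a fusion oncoprotein of acute myeloid leukemia carried by both groups. One group had been transduced with pMIG-TGIF1 (3 arrays) and the other with pMIG, the empty GFP retroviral vector (3 arrays). Per the labels' protocols, GFP-positive cells were sorted 3 days after the first transduction, kept for 1 day in medium and lysed. The comparison asks what the TGIF1 vector, which encodes a transcriptional repressor of the homeodomain class, changes in these cells relative to the empty vector.

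In a canonical inflammasome, the NLRP3 protein senses cell damage, recruits the adaptor ASC (the product of Pycard) and thereby activates caspase-1, which matures interleukin-1 beta and interleukin-18 and cleaves the pore-forming protein gasdermin D. The mouse Casp4 product, also called caspase-11, senses cytosolic lipopolysaccharide and cleaves gasdermin D directly. In apoptosis, caspase-8 starts the pathway below death receptors and caspase-9 starts it on the Apaf1 apoptosome, while caspase-2 is activated on a platform with Pidd1 and Cradd. Caspase-6 is an executioner that cleaves nuclear lamins. Monocytes and macrophages are the myeloid cells best known for inflammasome activity.

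Whether the arrays of a group came from separate transductions or cultures is not in the labels, so the p-values rest on a spread between samples that may be no more than technical. The probe set of Tgif1 itself read 239, 239 and 258 in the pMIG-TGIF1 arrays and 320, 376 and 408 in the pMIG arrays, lower rather than higher where the vector carried TGIF1 (limma adjusted p = 0.00286). Whether its probes read the transcript of the vector was not tested, so every direction rests on the labels alone. Of the markers of the labelled cells, Kit, the c-kit receptor (327 ± 28 in pMIG-TGIF1, 433 ± 55.5 in pMIG, SD, n = 3 each), and Ptprc, the pan-leukocyte antigen CD45 (2833 ± 332 in pMIG-TGIF1 and 1814 ± 50.8 in pMIG), were read in both groups, Kit lower and Ptprc higher with pMIG-TGIF1. All values are intensities that the authors obtained with RMA. Changes are log2 differences, pMIG-TGIF1 minus pMIG, from limma over 25123 probe sets with a symbol, and a call means a p under 0.05 after Benjamini-Hochberg adjustment. Rose and fell are used of calls. By this rule 6200 probe sets (24.7%) were called, so a call on its own was common.

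Of the 8 genes, 6 rose (11.5% of all probe sets did), 1 fell (13.2% did) and 1 was not called. All 8 lie in the brighter part of the array, where calls were more common. With the dimmest 50% of the 25123 probe sets left out, 2350 of the remaining 50% rose and 3408 fell. Both are larger shares than the 11.5% and 13.2% over all probe sets, which are thus a low background for these 8 genes. Nlrp3 and Casp6 rose more than 2-fold, which 2.65% of all probe sets did, whereas Pycard, Casp1, Casp8 and Casp9 rose by 1.29-fold to 1.49-fold. Casp2 fell, and Casp4 did not pass. The median log2 change of the 8 was 0.48, against 0.010 over all probe sets tested. In 7 genes the 3 arrays of one group lay entirely to one side of the other group's, as they did in 38.4% of all probe sets, and for these 7 the exact two-sided permutation p over arrays was 0.1, the smallest that 20 assignments allow.

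**Figure D1:**
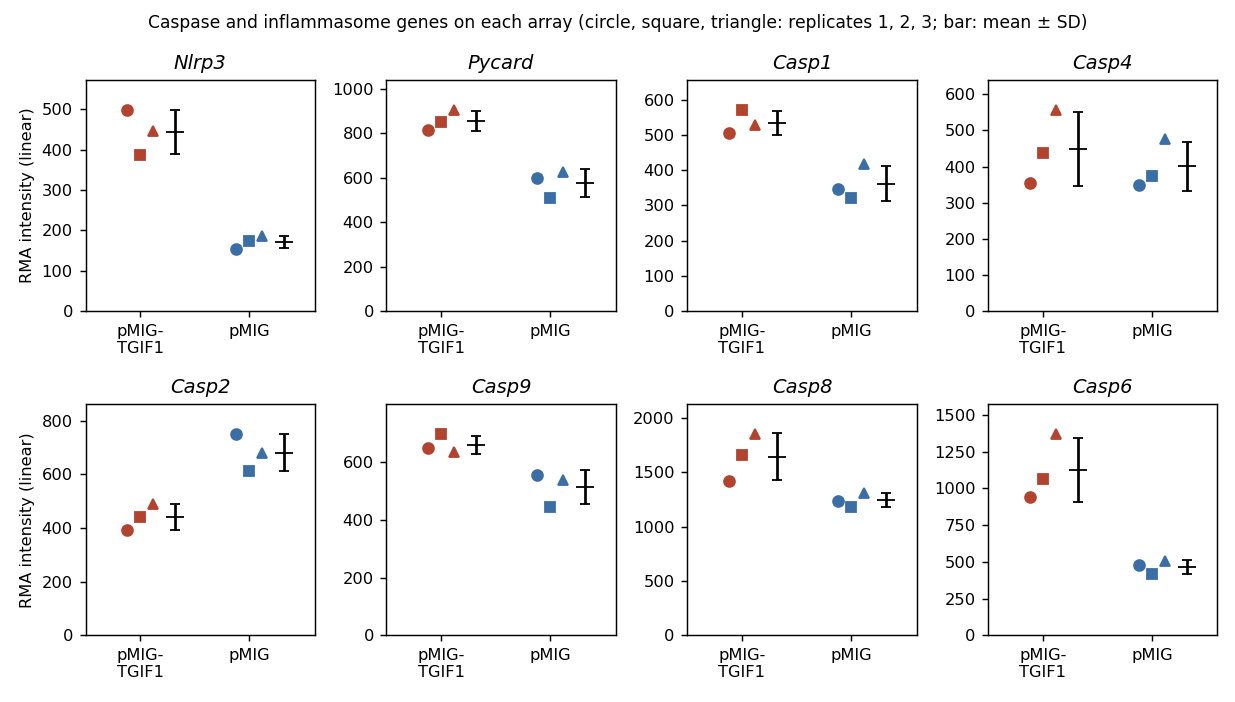
RMA intensity (linear scale, from 0) of the 8 genes on each array, pMIG-TGIF1 in red and pMIG in blue, with replicates 1, 2 and 3 as circle, square and triangle and the mean ± SD (n = 3) beside them. The groups are apart in 7 genes and overlap in Casp4, and Casp2 is the one gene whose pMIG-TGIF1 arrays are the lower ones.

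Nlrp3, the sensor, read 498, 387 and 445 in the pMIG-TGIF1 arrays, against 155, 173 and 185 in the pMIG arrays. The lowest pMIG-TGIF1 array was above the highest pMIG array by more than the whole range of the pMIG group. The log2 change was 1.37 ± 0.12 (SE), or 2.59-fold higher (95% CI 2.17 to 3.10, limma adjusted p = 2.02e-05), and it ranked 351 by p among the 25123 probe sets.

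Pycard, which encodes the adaptor that links sensors to caspase-1, read 813, 850 and 904 with pMIG-TGIF1 and 596, 507 and 624 with pMIG. Its rise was smaller, at log2 0.58 ± 0.11 (1.49-fold, 95% CI 1.27 to 1.75, limma adjusted p = 0.00242). The change of Nlrp3 exceeded that of Pycard by 0.80 on the log2 scale (SD of the within-array difference 0.22 in pMIG-TGIF1 and 0.20 in pMIG, n = 3 each). The exact two-sided permutation p of that difference was 0.1, the smallest possible, and 0.15 adjusted over the 3 gene pairs compared, which were chosen after their values were seen.

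RefSeq lists a pair of transcription starts for Nlrp3, and both windows are shown because this gene changed most among the 8. Each window covers 250 bases before to 50 bases after a start on GRCm38.p6, 5′ to 3′ on the gene's strand (plus). Both strands were searched for 2 motifs, TGANTCA for AP-1 and CTGTCA for TGIF-type homeodomain proteins, which do not overlap in these windows. Capitals mark the matches.
Nlrp3, upstream start, chr11:59541319-59541618: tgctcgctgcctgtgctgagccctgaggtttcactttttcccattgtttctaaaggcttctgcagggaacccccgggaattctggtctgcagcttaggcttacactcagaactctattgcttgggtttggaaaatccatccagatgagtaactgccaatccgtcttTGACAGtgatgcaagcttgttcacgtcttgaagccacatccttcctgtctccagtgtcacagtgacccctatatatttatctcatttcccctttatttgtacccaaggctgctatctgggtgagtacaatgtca
Nlrp3, downstream start, chr11:59542436-59542735: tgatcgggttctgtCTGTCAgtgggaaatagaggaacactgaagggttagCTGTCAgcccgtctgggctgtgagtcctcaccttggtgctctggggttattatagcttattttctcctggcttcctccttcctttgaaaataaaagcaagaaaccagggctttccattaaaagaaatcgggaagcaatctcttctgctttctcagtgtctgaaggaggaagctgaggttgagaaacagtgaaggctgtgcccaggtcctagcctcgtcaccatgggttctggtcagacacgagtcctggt
The upstream window holds 1 CTGTCA match, on the minus strand 84 bases before the start. The downstream window holds CTGTCA at 2 places, 236 and 200 bases before the start. Of 32851 windows of this length, 19.2% hold CTGTCA and 7.81% hold the AP-1 motif, so a CTGTCA match is not rare, and a match does not show binding.

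Casp1, the protease of the canonical inflammasome, read 504, 571 and 527 in pMIG-TGIF1 arrays and 348, 321 and 416 in pMIG arrays. Every pMIG-TGIF1 array was above every pMIG array. The log2 change was 0.57 ± 0.11, or 1.48-fold higher (95% CI 1.25 to 1.77, limma adjusted p = 0.00405). It was close in size to the change of Pycard.

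Casp4, the lipopolysaccharide-sensing caspase, read 353, 436 and 557 with pMIG-TGIF1 and 349.8, 374 and 477 with pMIG. The groups overlapped almost wholly, and this gene had the widest spread among the 8 in both groups (log2 SD 0.33 and 0.24). The log2 change was 0.15 ± 0.17, with a 95% interval of 0.858-fold to 1.44-fold (-0.22 to 0.53 on the log2 scale, limma adjusted p = 0.600). Without pMIG-TGIF1 replicate 3, its brightest array, the change was -0.015 (limma adjusted p = 0.962).

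Casp1 and Casp4 are neighbours on chromosome 9, with Casp12 next after Casp4. The change of Casp1 was 0.42 larger than that of Casp4 on the log2 scale, with an SD of the within-array difference of 0.31 in pMIG-TGIF1 and 0.12 in pMIG. The exact two-sided permutation p was 0.2, also after adjustment over the 3 pairs, so the call of one and not the other is not shown to be a difference between them. Casp12, an inflammatory-type caspase, was dim on all arrays, at 14.1, 13.5 and 15.05 with pMIG-TGIF1 and 11.99, 12.2 and 13.8 with pMIG, and was not called (log2 0.17 ± 0.10, limma adjusted p = 0.264). The start windows of the pair are shown, with capitals for the same 2 motifs, because the neighbours stood on different sides of the threshold.
Casp1, chr9:5298267-5298566: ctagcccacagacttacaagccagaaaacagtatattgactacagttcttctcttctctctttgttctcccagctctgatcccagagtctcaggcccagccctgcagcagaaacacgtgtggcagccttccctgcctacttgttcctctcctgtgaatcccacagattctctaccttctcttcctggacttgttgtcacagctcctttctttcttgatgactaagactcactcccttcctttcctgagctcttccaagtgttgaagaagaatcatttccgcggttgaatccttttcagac
Casp4, first of 2 overlapping windows, chr9:5308599-5308898: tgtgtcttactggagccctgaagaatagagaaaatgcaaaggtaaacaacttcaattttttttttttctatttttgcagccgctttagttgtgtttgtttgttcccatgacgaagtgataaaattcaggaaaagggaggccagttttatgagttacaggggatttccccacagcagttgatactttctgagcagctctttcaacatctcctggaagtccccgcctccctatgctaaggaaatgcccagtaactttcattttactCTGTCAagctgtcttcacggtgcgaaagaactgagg
The Casp4 window holds CTGTCA, 15 bases into the transcript. The Casp1 window holds no match to either motif, and neither do the windows of Pycard, Casp2, Casp6, Casp8 and Casp9. The AP-1 letters are in no window of the 8 genes.

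**Figure D2:**
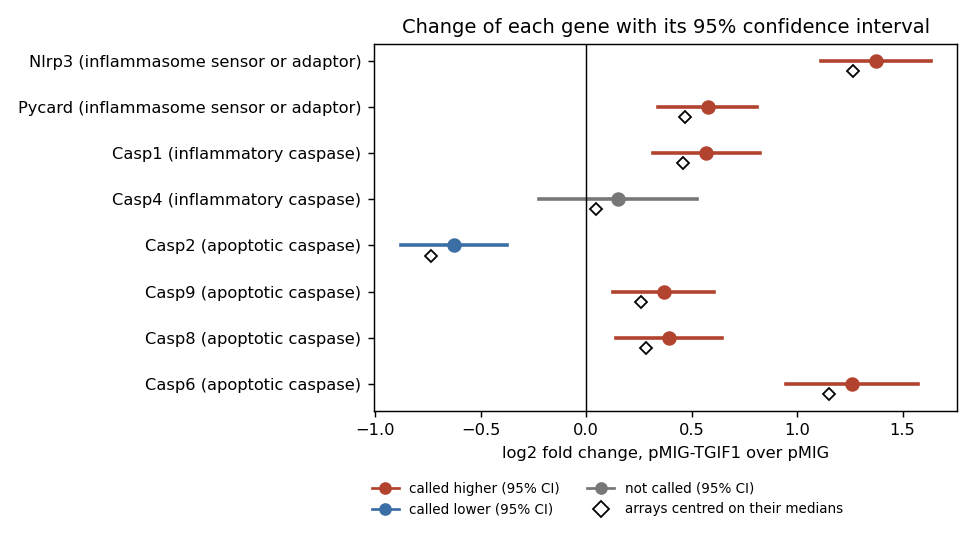
Log2 fold change of pMIG-TGIF1 over pMIG for each gene with its 95% confidence interval (limma, n = 3 arrays a group), ordered by role. Open diamonds give the change with each array centred on its median, which places every gene about 0.11 lower and leaves Casp4 nearest to 0.

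Among the apoptotic caspases, those that start the pathways came out in opposite directions. Casp2, the caspase of the Pidd1 platform, read 394, 439 and 489 in pMIG-TGIF1 arrays, against 749, 612 and 679 in pMIG arrays. All pMIG-TGIF1 arrays were below all pMIG arrays. It fell by 0.63 on the log2 scale (SE 0.11), or 1.54-fold (limma adjusted p = 0.00231).

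Casp8, the initiator below death receptors, read 1419, 1658 and 1851 with pMIG-TGIF1 and 1239, 1183 and 1314 with pMIG. The groups did not overlap, but the pMIG-TGIF1 arrays were spread more widely (SD 217) than the pMIG arrays (SD 65.9). The log2 change was 0.39 ± 0.11 (1.31-fold, 95% CI 1.10 to 1.56, limma adjusted p = 0.0272). With each array centred on its median, it was 0.28 and was not called (limma adjusted p = 0.0781). Leaving out any single array except pMIG-TGIF1 replicate 1 also ended the call (log2 0.30 to 0.43, adjusted p = 0.0514 to adjusted p = 0.0971).

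Casp9, the apoptosome caspase, read 646, 695 and 634 in pMIG-TGIF1 arrays and 556, 445 and 536 in pMIG arrays. The groups did not overlap, but the gap between them was smaller than the range of the pMIG arrays. The log2 change was 0.37 ± 0.11 (1.29-fold, 95% CI 1.09 to 1.52, limma adjusted p = 0.0299). It was 0.26 and not called with array median centring (limma adjusted p = 0.103), and the call did not survive omitting pMIG-TGIF1 replicate 1, pMIG-TGIF1 replicate 2, pMIG replicate 2 or pMIG replicate 3 (log2 0.27 to 0.40, adjusted p = 0.0562 to adjusted p = 0.117).

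Casp6, the executioner that cuts lamin A, read 945, 1066 and 1369 in pMIG-TGIF1 arrays and 478, 415 and 505 in pMIG arrays. Its dimmest pMIG-TGIF1 array was far above its brightest pMIG array. The log2 change was 1.26 ± 0.14, or 2.40-fold (95% CI 1.93 to 2.97, limma adjusted p = 0.000107). The changes of Casp6 and Casp2 differed by 1.89 on the log2 scale (SD of the within-array difference 0.13 in pMIG-TGIF1 and 0.11 in pMIG), with the smallest possible exact two-sided permutation p of 0.1 and 0.15 adjusted over the 3 pairs.

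Set side by side, the apoptotic caspases had a median log2 change of 0.38, with 3 of 4 higher and 1 lower, and spanned -0.63 to 1.26. The inflammatory caspases had a median of 0.36, with 1 of 2 higher and none lower, and spanned 0.15 to 0.57. The values of both inflammatory caspases lay inside the range of the apoptotic ones. The classes therefore did not separate the 6 caspases by direction or size in these arrays. The sensor and adaptor lay at 1.37 and 0.58. No test is given for the classes, since genes are not replicates.

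Casp14, a caspase of skin that is not among the 8 genes, was dim and not called (log2 -0.15 ± 0.10, limma adjusted p = 0.314).

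Among the genes that work with the inflammasome, several sensors and cytokines rose. Over all probe sets 11.5% rose and 13.2% fell, and both shares were larger with the dimmest 50% left out. Whether the inflammasome lists differ from this array-wide pattern was not tested. Of 9 other sensors measured, 4 rose and 0 fell (limma; 3 to 4 rose on leaving out single arrays, and 0 were lower at an unadjusted p under 0.05 or under any of the 17 alternatives). These were Nlrp1b (log2 1.36 ± 0.14) and Nlrp1a (0.81 ± 0.17), near-identical copies that may share probe signal, the bacterial protein adaptor Nlrc4 (0.55 ± 0.10) and the DNA sensor Aim2 (0.46 ± 0.12), with limma adjusted p = 5.75e-05 to adjusted p = 0.0179. Of 8 output genes, 4 rose and 1 fell, with a median of 0.40. Il1b, a caspase-1 substrate, read 1510, 1356 and 2227 in pMIG-TGIF1 arrays and 327, 408 and 392 in pMIG arrays, and Il18, another, read 220.4, 259 and 340 in pMIG-TGIF1 arrays and 53.7, 50.9 and 52.5 in pMIG arrays. Their log2 changes, 2.15 ± 0.17 and 2.36 ± 0.14, were larger than those of Nlrp3 and Casp1, as was that of Il1a (2.35 ± 0.13), and each of the 3 cytokines had its groups fully apart. Ninj1, which ruptures the membrane after gasdermin pores form, rose (0.54 ± 0.11), whereas Gsdmd, the gasdermin D gene itself, did not pass (0.19 ± 0.12, limma adjusted p = 0.312). The 1 output gene called lower, Hmgb1 (-0.33 ± 0.10, limma adjusted p = 0.0380), lost its call on leaving out any single array except pMIG-TGIF1 replicate 2.

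Of 19 priming and activation genes, 8 rose and 2 fell (median 0.25), against 11.5% and 13.2% of all probe sets. The smallest p-values among those that rose belonged to the lipopolysaccharide coreceptor Cd14 (log2 2.33 ± 0.13), its receptor Tlr4 (1.42 ± 0.10), the interferon-induced GTPase Gbp2 (1.46 ± 0.13) and Tmem173, which encodes the DNA pathway protein STING (0.94 ± 0.09). P2rx7, the ATP-gated channel that triggers NLRP3, rose as well (0.95 ± 0.11, limma adjusted p = 0.000115). Gbp3, another interferon-induced GTPase, fell (-1.06 ± 0.13, limma adjusted p = 0.000181), and it did so in all 17 alternative settings. Nek7, the kinase that NLRP3 needs for assembly, was at the threshold (-0.35 ± 0.11, limma adjusted p = 0.0407), and omitting any 1 array ended its call, except for pMIG-TGIF1 replicate 3. Genes listed as restraining the inflammasome, a role not tested here, moved both ways, with 3 of 10 higher and 1 lower and a median of 0.035. Nlrc5 (1.31 ± 0.10), Trim30a, known to restrain NLRP3 activation (0.97 ± 0.15) and the decoy receptor Il1r2 (1.30 ± 0.24) rose, and Serpinb1a, a protease inhibitor that restrains inflammatory caspases, fell (-1.10 ± 0.10).

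**Figure D3:**
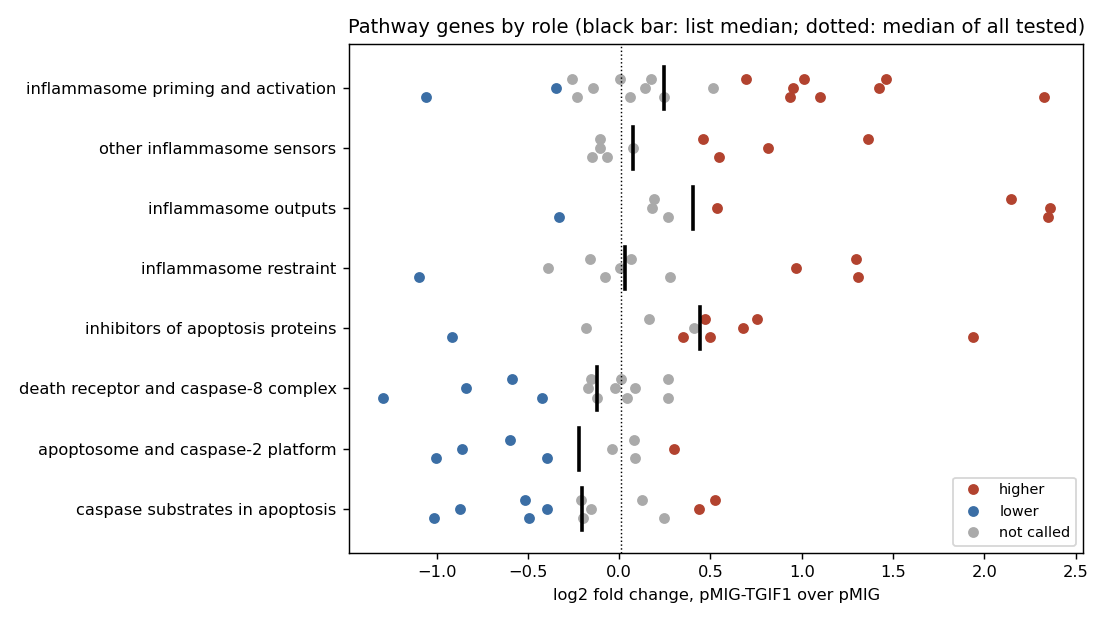
Log2 fold change of pMIG-TGIF1 over pMIG for the genes of 8 pathway lists, coloured by limma call, with each list's median as a black bar and the median of all probe sets tested (0.010) as a dotted line. The 4 largest values are those of Il18, Il1a and Il1b among the output genes and of Cd14 in the priming list, and the death receptor, apoptosome and substrate lists have medians below 0.

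In 3 lists of genes that work with the apoptotic caspases, more genes fell than rose. The same held over all probe sets, of which 13.2% fell and 11.5% rose. With the dimmest 50% left out, 3408 of the remaining probe sets fell and 2350 rose, larger shares than over all probe sets. Whether these lists differ from that array-wide pattern was not tested. Of 13 death receptor and caspase-8 complex genes, 0 rose and 4 fell (median -0.12). The death receptor Fas (log2 -1.30 ± 0.17) and the adaptor Traf2 (-0.84 ± 0.11) fell, as did the deubiquitinase Cyld (-0.59 ± 0.10) and the necroptosis kinase Ripk3 (-0.42 ± 0.10), the last not called without pMIG replicate 1. Fadd, which binds caspase-8, and Cflar, its catalytically dead relative, did not pass (-0.17 and 0.088, limma adjusted p = 0.475 and adjusted p = 0.709). At an unadjusted limma p under 0.05, 1 gene of this list was higher (Tradd, log2 0.27), and 1 was called higher with renewed quantile normalization.

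Of 8 apoptosome and caspase-2 platform genes, 1 rose and 4 fell (median -0.22). The mitochondrial protease Htra2 (log2 -1.003 ± 0.09), cytochrome c, Cycs (-0.60 ± 0.09), and Endog (-0.40 ± 0.12) fell. Endog was not called without any one of the pMIG arrays or of pMIG-TGIF1 replicates 1 and 2. Pidd1, the sensor that activates caspase-2, read 110.4, 107 and 69.1 in pMIG-TGIF1 arrays and 175, 182 and 154 in pMIG arrays, and it fell like Casp2 (-0.86 ± 0.17, limma adjusted p = 0.00338). Its partner Cradd, the 1 riser, was near the threshold (0.30 ± 0.09, limma adjusted p = 0.0401) and was called in 7 of 17 alternative settings. Apaf1, which recruits caspase-9, did not pass (0.085 ± 0.09, limma adjusted p = 0.600).

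Of 12 apoptotic caspase substrates, 2 rose and 5 fell (median -0.20), and 1 rose without pMIG replicate 2, pMIG replicate 3 or pMIG-TGIF1 replicate 3. Lmna, the lamin that caspase-6 cuts, rose (log2 0.52 ± 0.11), while Lmnb1, another lamin (-1.01 ± 0.15), Dffa, the inhibitor of the apoptotic nuclease (-0.87 ± 0.11), and the DNA repair enzyme Parp1 (-0.50 ± 0.11) fell. On leaving out single arrays, 4 to 7 genes of the inhibitor list rose. As reported, it held 6 of 10 genes that rose and 1 that fell (median 0.44), against 11.5% and 13.2% of all probe sets. Of the 6, Naip1, Naip5 and Naip6 belong to a family of near-identical copies that in mice are known as sensors for the Nlrc4 inflammasome, so they count toward the inflammasome as much as toward inhibition. Naip1 rose most (log2 1.94 ± 0.12, limma adjusted p = 3.18e-06), and Birc3, a ubiquitin ligase of the TNF receptor complex, by 0.76 ± 0.16. Serpinb9, a granzyme inhibitor, rose by 0.68 ± 0.14, and Birc5, survivin, fell (-0.92 ± 0.12). Xiap, the direct inhibitor of caspase-9, did not pass (0.16 ± 0.10, limma adjusted p = 0.305).

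Cell markers differed between the same arrays. Of 7 markers of the labelled cells, 1 rose (Ptprc, log2 0.64 ± 0.11) and 5 fell, and their summed intensity was 4762 to 5680 in pMIG-TGIF1 arrays and 6288 to 6476 in pMIG arrays. The progenitor and leukemia transcription factor genes Meis1 (log2 -1.13 ± 0.12), Myb (-1.05 ± 0.10) and Hoxa9 (-0.87 ± 0.15) fell. The stem and progenitor antigen Cd34 (-0.44 ± 0.12) and Kit (-0.40 ± 0.12) also fell (limma adjusted p = 0.0247 and adjusted p = 0.0311). Without pMIG replicate 1 or pMIG-TGIF1 replicate 1 neither was called. The call of Kit was also lost without pMIG replicate 2, and that of Cd34 without pMIG-TGIF1 replicate 2 or pMIG replicate 3. Of 18 monocyte and macrophage markers, 12 rose and 1 fell, and their summed intensity was 35984 to 40616 in pMIG-TGIF1 arrays and 18309 to 20765 in pMIG arrays. F13a1 (log2 3.62 ± 0.12), Cd86 (2.10 ± 0.10) and Adgre1 (0.97 ± 0.11) rose, whereas Csf1r, the M-CSF receptor, did not pass (0.19 ± 0.10, limma adjusted p = 0.244). Fcgr1, C1qa, C1qb and Vcan were not called either. The 1 that fell was Cx3cr1 (-1.14 ± 0.11, limma adjusted p = 4.51e-05). Of 13 neutrophil markers 4 rose and 2 fell, and their sum was 22160.3 to 23329 in pMIG-TGIF1 arrays and 20559 to 21980.1 in pMIG arrays. Ly6g was among those that rose (1.42 ± 0.15), whereas Ngp (-0.98 ± 0.10) and Mpo (-0.91 ± 0.24) fell. Mpo was not called without pMIG replicate 1 or pMIG replicate 2. Ltf, Camp, S100a9, Elane and Csf3r were among those not called. Of 8 megakaryocyte and platelet markers 3 rose, Pf4 (4.18 ± 0.19), Ppbp and Vwf, and the sum was 3118 to 4625 in pMIG-TGIF1 arrays and 633 to 738 in pMIG arrays. The platelet receptor genes Gp1ba and Gp9 were not called. Of 9 mast cell and basophil markers 0 rose, also at an unadjusted limma p under 0.05, and 1 fell (Ms4a2, log2 -2.01 ± 0.16), with sums of 414 to 417 in pMIG-TGIF1 arrays and 516 to 543 in pMIG arrays. Of 9 erythroid markers 2 rose and 1 fell (sums of 1178 to 1389.8 in pMIG-TGIF1 arrays and 1461 to 1572 in pMIG arrays). The sum was mostly that of Tfrc, which fell (mean 911 in pMIG-TGIF1 and 1214 in pMIG). The globin genes Hba-a1 (log2 0.38 ± 0.10) and Hbb-bt (0.55 ± 0.14) rose, and none of these calls held without pMIG replicate 3. Of 12 B and T cell markers 2 rose (sums of 427 to 460.0 in pMIG-TGIF1 arrays and 411 to 414 in pMIG arrays). RMA intensities do not reach 0, so no marker is listed at 0. The part of any of these cell types in the changes of Nlrp3, Casp6 or the other genes was not tested, and in such bulk samples fewer cells of a type and less RNA per cell cannot be told apart.

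The genes whose 6 values lay nearest to those of a called gene were found by the Euclidean distance between log2 profiles, each minus its own pMIG mean. For Nlrp3 these were Lpp (distance 0.220), the complement receptor C5ar1 (0.221) and Dpep3 (0.228). For Casp6 they were Ccr2, the monocyte chemokine receptor (distance 0.131), Ube2h (0.188) and Pira11 (0.191), and for Casp2 they were Tube1 (0.132), Pdpr (0.140) and Cdkn3 (0.145). Since 3 arrays lie in each group, this distance goes mostly by the size of the group difference, which on the log2 scale was 1.21 for Ccr2 and 1.26 for Casp6.

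In the authors' deposited table, the signed fold changes of the 8 genes were 2.59 for Nlrp3, 2.40 for Casp6, 1.49 for Pycard, 1.48 for Casp1, 1.31 for Casp8, 1.29 for Casp9, 1.11 for Casp4 and -1.54 for Casp2. The deposited p-value was 0.55 for Casp4, 0.03 for Casp8 and Casp9 and at most 0.01 for the others in the authors' deposited table.

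**Figure D4:**
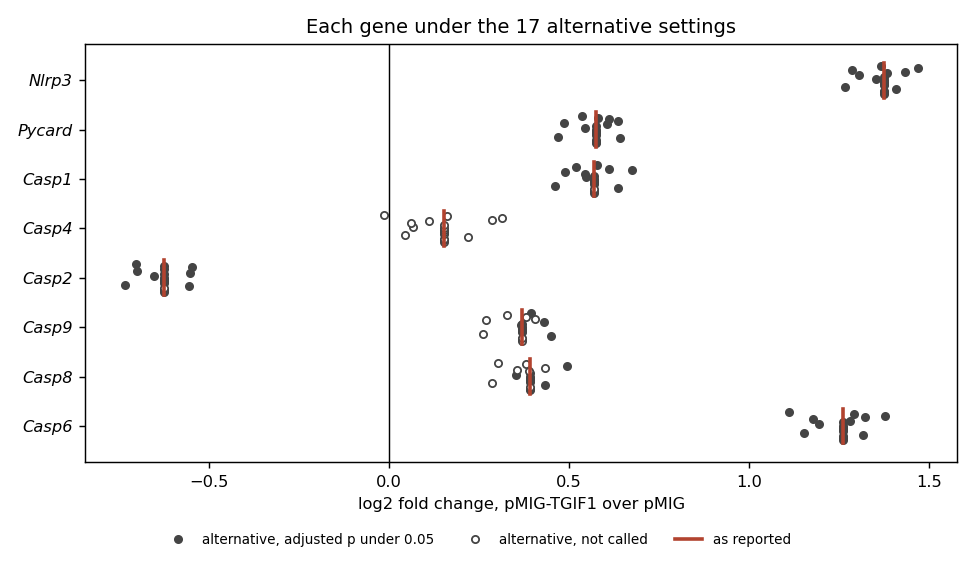
Log2 fold change of pMIG-TGIF1 over pMIG for each gene under 17 alternative settings (points; filled where the adjusted p was under 0.05, open where not) beside the reported value (red bar). Nlrp3, Pycard and Casp6 are filled throughout, Casp1 and Casp2 are open once, Casp8 and Casp9 are each open 7 times, and Casp4 is open throughout.

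Across the 17 alternative settings the 8 genes differed in how often they were called. Nlrp3, Casp6 and Pycard were called in all 17, with log2 changes of 1.27 to 1.47, 1.11 to 1.38 and 0.47 to 0.64. Casp1 (0.46 to 0.67) and Casp2 (-0.73 to -0.55) were called in 16, and Casp8 and Casp9 in 10. None of the 8 was among the dimmest 50% of probe sets, the least bright being Nlrp3, whose mean exceeded that of 67.8% of them.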

How the data were processed

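Arrays were grouped by their titles (3 pMIG-TGIF1, 3 pMIG). The authors deposited intensities per probe set, linear in scale and made with RMA. The tools RMA and Partek are named, per the submitters' processing notes, with no versions or settings. RMA corrects background, normalizes between arrays and summarizes probes, which compresses large changes of dim probe sets. The authors' deposited table also gives p-values to 2 decimals and signed fold values, and the sources used here do not give the test. Both deposited tables hold the same intensities (largest difference 0).

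After log2 transformation, a linear model was fitted to every probe set by limma 3.58.1 under R 4.3.3 (lmFit, eBayes, no filter). The 25123 of 28853 probe sets with a symbol were tested, and p-values were Benjamini-Hochberg adjusted over them. SE and 95% intervals are those of the moderated fit, and the fit was checked on simulated data. The number of arrays limits the precision. The 2 promoter motifs were chosen with results known. Matches to 3 longer motifs, which had also been searched, are not reported here. The 8 genes were matched on the deposited symbol, other lists also through RefSeq names (GRCm38.p6). Lists used the probe set with the highest mean per gene, and 2 list genes were not matched. Genes named from each list were the up to 4 with the smallest p (3 for cell markers, with defining markers added); others were named after their values were seen. Genes nearest to Nlrp3, Casp6 and Casp2 were taken by distance, predicted genes skipped. The 8 genes and the lists were chosen with earlier results of these data known. Some genes of the lists are not reported here by name. Start windows are from RefSeq and were found for all 8 genes. Alternatives were a replicate block, an intensity trend with robust prior, no moderation, quantile normalization, median centring, leaving out the dimmest 30% or 50%, a single probe set per gene, all probe sets, weights for arrays, the second table and leaving out each array. Scanner files and a genome sequence were not used here.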

Additional observations from a re-analysis of the deposited data

How the results depend on the processing

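Without moderation, 3 of the 8 genes were called higher and 0 lower (6 and 1 as reported), as were 16 and 10 of the pathway list genes (29 and 19) and 1754 and 1647 of all probe sets (2892 and 3308); the same changes have fewer degrees of freedom there. At an unadjusted p under 0.05 that ordinary model gave 6 higher and 1 lower, and Casp1 (adjusted p = 0.0609) and Casp2 (adjusted p = 0.0507) missed the threshold. Leaving out single arrays gave 4 to 5 of the 8 genes higher and 1 lower, 25 to 30 list genes higher and 13 to 18 lower, and 2323 to 2724 probe sets higher and 2537 to 3187 lower. Casp4, never called, turned to -0.015 without pMIG-TGIF1 replicate 3, whose limma weight was the lowest of the 6 (0.56), within a range of -0.015 to 0.31 on leaving out single arrays; the cause was not tested. With arrays centred on their medians, the median log2 change over all probe sets moved by -0.11, to -0.097 against 0.010, and 30.9% of calls were higher (2179 higher, 4870 lower), against 46.6%. Relative to that shift, 4 of the 8 genes were called higher and 1 lower, Casp8 and Casp9 having dropped out. The labels number the arrays 1 to 3 in both groups, but same-numbered arrays did not deviate together (correlations of -0.19, -0.11 and -0.049 across probe sets), so the numbers were not taken as pairs. With the replicate block, 5 of the 8 genes were called higher and 1 lower, and Casp9 was not called (log2 0.37, limma adjusted p = 0.0612).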
